A study of Mus musculus with 42 samples.

Results

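The odorant receptors (ORs) described here are the intact ORs Olfr90 to Olfr137, which lie in 1 cluster on mouse chromosome 17 beside the major histocompatibility complex. Members were taken by name from the 9 deposited tables: every gene called exactly Olfr followed by a whole number in that range, with names ending in -ps dropped. This gave 43 of the 1088 intact ORs in the pS6-IP-Seq tables, and the same 43 of the 1087 ORs in the table of dorsal and ventral epithelium. Names within the range that are not listed as intact ORs are not analysed here. No measured value entered the choice of members, although the cluster was picked with earlier results of these data known.

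ORs are G protein-coupled receptors of the cilia of olfactory sensory neurons (OSNs), and each mature OSN as a rule expresses 1 allele of 1 OR gene. OR genes sit in clusters that grew by tandem duplication, so neighbours are often close in sequence, and each OR is restricted to a zone of the epithelium. The cluster beside the major histocompatibility complex has drawn interest because genes in that region take part in immune recognition and are inherited together. Binding of an odorant raises cAMP through the olfactory G protein and adenylyl cyclase 3, and activity leads to phosphorylation of the ribosomal protein S6. Ribosomes of active OSNs can therefore be pulled down with an antibody against phosphorylated S6, and the ORs in that RNA are read by sequencing (pS6-IP-Seq).

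C57BL/6 mice of p20 to p22 were exposed for 1 h to acetophenone (ACT), a sweet-smelling ketone, or to trimethylthiazoline (TMT), a fox odor that mice avoid. Each odorant was given at starting concentrations (v/v) of 0.01%, 0.1%, 1% and, undiluted, 100%, to 3 mice each, and control mice had no odor. For each odorant, 1 set of 3 no odor mice served for 0.01% and 0.1%, and another set of 3 served for 1% and 100%. A replicate number stands for a litter of the same sex, so the odor and no odor mice of a comparison are littermates. Numbers restart in each of the 4 sets, so litter 1 of the low and of the high concentrations were taken as different litters. All these groups are wild type, and whole olfactory epithelium was used. Total RNA from dorsal and from ventral olfactory mucosa, 3 libraries each, was sequenced without immunoprecipitation. Per the study's figure legend these came from 3 mice, but which library is from which mouse is not given in the sources used here. The extraction text in the labels of these libraries is that of the pS6 immunoprecipitation, while their molecule and experiment labels and the study's methods give total RNA-Seq, which was followed. Both kinds of library are bulk samples, in which fewer OSNs of a kind and less OR mRNA per OSN cannot be told apart.

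The pS6-IP-Seq libraries held 37012 to 128805 counts on ORs, and the dorsal and ventral libraries 155319 to 242123. The tables list ORs only, so markers of OSNs and of other cell types were not analysed here. In the zone libraries, 6 ORs known as dorsal, among them the class I OR Olfr690 and the ACT receptor Olfr160 (M72), were 3.0 to 4.32 log2 higher in dorsal epithelium. The ventral marker Olfr1507 (MOR28) was 5.27 log2 lower there, while Olfr17 (P2) did not pass the test at -1.02 (adjusted p = 0.127). Of the ORs known for ACT before this study, Olfr145 rose at 0.1% ACT by 1.89 log2 (adjusted p = 0.0335). Olfr151 and Olfr160 were not called at any concentration. Olfr160 stood at 1.46 ± 0.46 log2 at 100% ACT (SE; adjusted p = 0.171). Olfr151 had no count in the comparisons of 0.01% and 100% ACT with no odor. Its SE was 2.43 log2 at 0.1% ACT and 2.86 at 1% ACT, so a change could hardly be called. The TMT receptor Olfr1019 was not called at any concentration of TMT.

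In the ACT experiments, the libraries of 0.01%, 1% and 100% ACT numbered litter 1 stood apart. The 0.01% ACT library was taken as of another litter than those of 1% and 100% ACT. The 51 ORs that rose at 1% TMT had a median log2 level over the 12 no odor libraries of 1.82 in the library labelled 1% ACT, litter 1. The same median was 1.42 in the library labelled 0.01% ACT, litter 1, and 1.01 in the library labelled 100% ACT, litter 1. It was 1.55 to 1.80 in the 3 libraries of 1% TMT and -0.18 to 0.24 in the other 9 ACT libraries. Among libraries numbered litter 1, it was 0.10 at 0.1% ACT, and 0.002 and 0.05 without odor in the low and high ACT sets. The 1% ACT, litter 1 library goes against its label in a pair of ORs chosen after their values were seen. Olfr1395, a sensitive TMT receptor, had 1940 normalized counts in it, against 173 to 334 in the other litters of 1% ACT. Olfr923, a sensitive ACT receptor, had 77.7 normalized counts in it, against 712 and 1578 in the other litters. The cause was not tested, and the ACT comparisons with no odor below are given with and without litter 1. A normalized count is a count divided by the effective library size and brought to the mean size.

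The 43 genes span 37083871 to 38336643 of chromosome 17 (GRCm38), and their order on the chromosome follows their numbers except that Olfr137 lies before Olfr136. At 80% identity of the coding sequence, 32 members fell into 8 groups of close relatives and 11 stood alone. The groups were mostly neighbours: Olfr90 to Olfr93, Olfr101 to Olfr103, Olfr110 with Olfr111, and Olfr133 to Olfr135. Other groups reached farther along the cluster, since Olfr117 groups with Olfr130, and Olfr112 to Olfr116 group with Olfr126 to Olfr128. To show how far the members differ at a place that nearly all ORs share, the 30 bases around the DRY motif are given. This motif follows the third transmembrane helix and takes part in coupling to the G protein. The sequences are from the GRCm38 reference, 5′ to 3′ on the coding strand, with the 3 codons of the motif in capitals.
Olfr136 (chr17:38335510-38335539, +): atgtcctttGATCGATATgtggctatctgc
Olfr133 (chr17:38148941-38148970, +): atgtcctttGACCGATATgtggccatctgc
Olfr96 (chr17:37225481-37225510, +): atggcatatGATCGATATctcgcaatttgt
Olfr110 (chr17:37499004-37499033, +): atggcatatGATCGATATattgctatctgt
Olfr101 (chr17:37300046-37300075, -): atggcatttGACCGCTTTgtggctatctgc
Olfr121 (chr17:37752225-37752254, +): atggcctatGACCGCTGCatggccatatgc
The third codon stood for tyrosine in 34 members, phenylalanine in 5 and cysteine in 3. Only in Olfr94 did the search, limited to a fixed stretch of residues, not find a single such motif. Its annotated coding sequence of 1158 bases is the longest of the members, and a motif outside that stretch would have been missed. The 5 with phenylalanine were Olfr101, Olfr102, Olfr103, Olfr109 and Olfr124, and the 3 with cysteine were Olfr119, Olfr121 and Olfr129. Against Olfr136, the window differed at 2 bases in Olfr133, at 8 in Olfr96 and at 6 in Olfr110.

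The closest pair matters for the counts, because 50-base reads were shared out between genes by RSEM. Olfr110 and Olfr111 differ at 18 of 951 coding bases (98.1% identity), and 31.8% of the 50-base stretches in the exons of Olfr110 also occur in Olfr111. Their densest difference, coding bases 847 to 876, is shown with the differing bases in capitals.
Olfr110 (chr17:37499499-37499528, +): cccatgctgaatcctGtaatttatAcGctA
Olfr111 (chr17:37530825-37530854, +): cccatgctgaatcctAtaatttatGcActG
Olfr101 and Olfr102, with 31 differing bases of 924, share 11.2% of the 50-base stretches of Olfr101. Coding bases 209 to 238 are shown in the same way.
Olfr101 (chr17:37300183-37300212, -): CctATtcTactgtAacaGtgccaaagCtgT
Olfr102 (chr17:37314145-37314174, -): GctTCtcCactgtGacaCtgccaaagAtgC
Olfr94, Olfr96, Olfr123, Olfr131, Olfr132 and Olfr137 shared no 50-base stretch with another OR gene. Values of Olfr110 and Olfr111 are given singly and summed. Sharing was high outside these pairs as well. Of the 50-base stretches of Olfr92, 30.686% occur in other OR genes, with 21.135% in Olfr753-ps1. The share was 29.987% for Olfr121 and 39.495% for Olfr98. How far read assignment moves the values of these ORs was not tested. Olfr116 overlaps Olfr115 on the chromosome, so its counts are uncertain too.

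Without odor, the members ran from ORs with hardly a count to some of the strongest ORs of the epithelium. Levels between genes were compared per kilobase of exon in 10000 OR counts, over the 12 no odor libraries. Olfr131 had the highest mean, 24.1 (16.1 to 31.0), ahead of Olfr110 at 23.6 (17.2 to 30.2), and these neighbours in the order overlapped over nearly their whole ranges. Olfr124 at 16.1 (11.4 to 24.8) and Olfr132 at 15.5 (10.1 to 21.3) followed, and they too overlapped. Among the 1083 ORs with an exon length in GENCODE M21, Olfr131 ranked 12 and Olfr110 ranked 13. At the other end, Olfr135 averaged 0.171 and Olfr98 averaged 0.154, and Olfr108 had no count in any no odor library. The member median was 2.08, beside 1.58 over all ORs. Exon lengths of the authors' own annotation may differ. Of the counts themselves, the members made up 5.28% of OR counts without odor while being 3.95% of the ORs, and 5 members (Olfr124, Olfr131, Olfr110, Olfr101 and Olfr132) held 41.9% of these. In the no odor libraries the members' share was stable, between 4.97% and 5.61%.

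**Figure D1:**
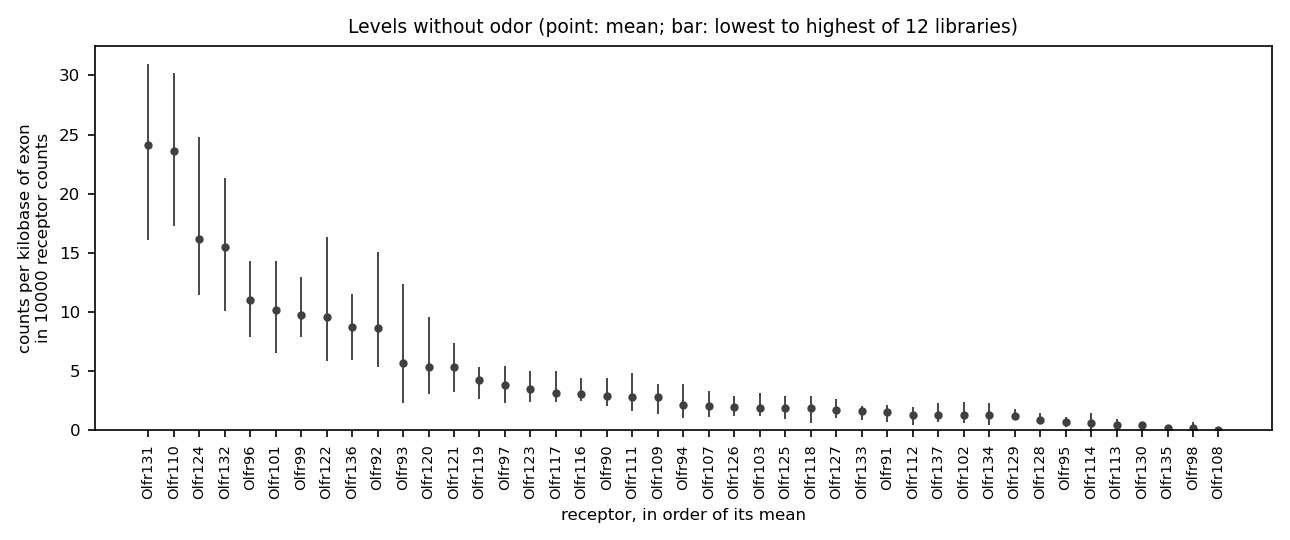
Level of each of the 43 receptors without odor, as counts per kilobase of exon in 10000 receptor counts (vertical axis), ordered by mean from left to right. Points are means and bars run from the lowest to the highest of 12 libraries. Olfr131 and Olfr110 lead at 24.1 and 23.6, and Olfr108 is at 0.

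The design asks which ORs each odorant recruits as its concentration grows. For TMT, no member was called at 0.01% or 0.1%, 2 were called at 1%, and 13 at 100%, where 8 rose and 5 fell. For ACT, 1 member was called, Olfr136 at 1%. Calls are from edgeR's quasi-likelihood test with Benjamini-Hochberg adjustment over all ORs, at an adjusted p below 0.05, with litter as a block. Olfr136 was the 1 member called for both odorants.

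**Figure D2:**
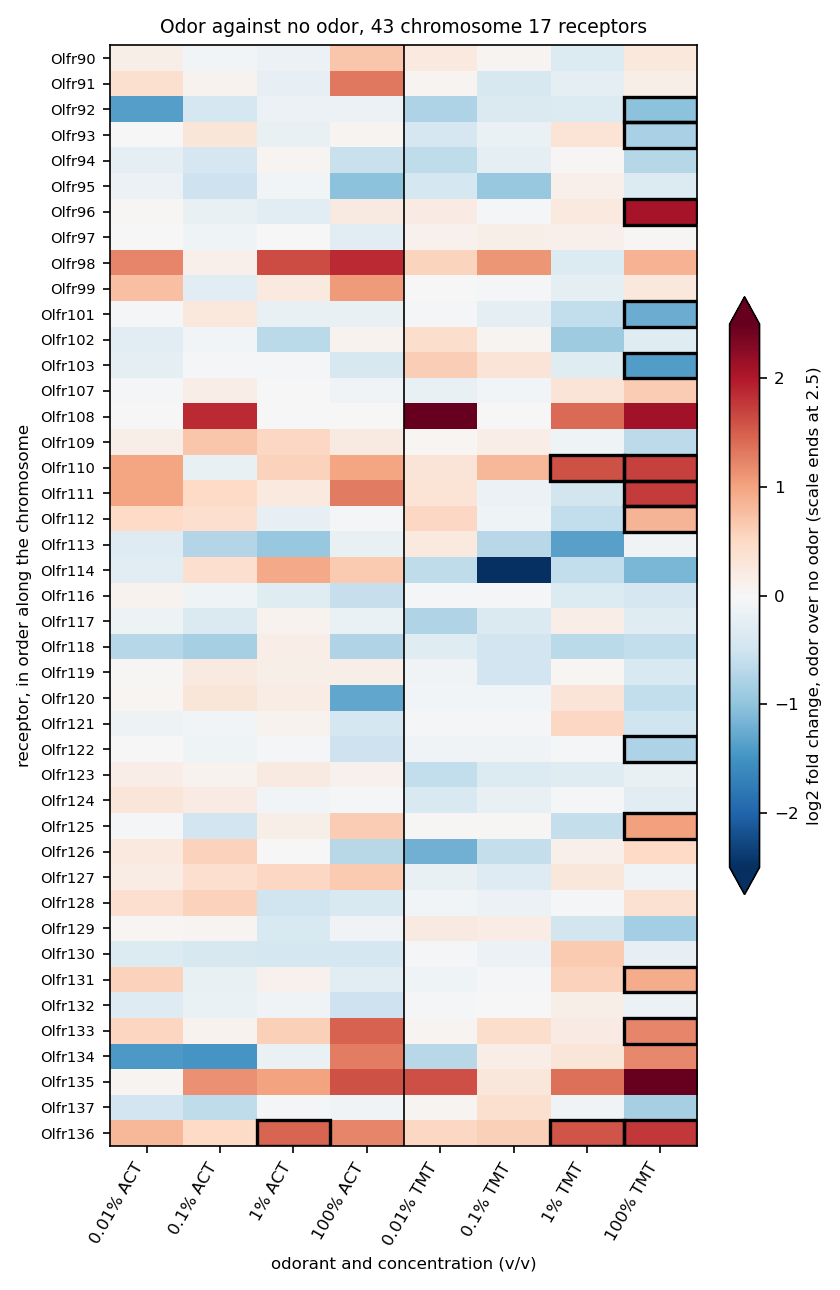
Log2 fold change of odor over no odor for the 43 receptors (rows, in order along the chromosome) at 4 starting concentrations (v/v) of ACT and of TMT (columns). Red is higher with odor, blue is lower, and black frames mark an adjusted p below 0.05. Of the frames, 13 stand at 100% TMT, 2 at 1% TMT and 1 at 1% ACT.

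No member passed the test at the low concentrations of TMT, though Olfr110 came near it at 0.1%. At 0.01% TMT, 0 of 43 members were called, beside 0.46% of all ORs (0.368% higher and 0.0919% lower). An unadjusted p below 0.05 was found for 5 members, beside 56 of the 1088 ORs. The smallest p belonged to Olfr92, with 69.2, 47.6 and 113 normalized counts at 0.01% TMT, against 141, 95.6 and 138 without odor in litters 1, 2 and 3. The groups overlapped, and the change of -0.77 ± 0.26 log2 (SE; adjusted p = 0.415) did not pass. Olfr96, Olfr101, Olfr103 and Olfr136 were at 0.21, -0.03, 0.61 and 0.51 log2, none past the test. At 0.1% TMT, again 0 members were called, beside 2.02% of all ORs. An unadjusted p below 0.05 was found for 2 members, beside 78 of the 1088 ORs. Olfr110 came nearest, with 464, 443 and 419 normalized counts at 0.1% TMT, against 213, 266 and 276 without odor. All 3 exposed mice were above all 3 controls, at 0.83 ± 0.26 log2 (SE; adjusted p = 0.0646), which misses the threshold. It passed with library sizes alone, with size factors over all genes, in the likelihood ratio test and in the joint fit of all TMT libraries. At 0.1% TMT the exposed and control groups did not overlap in 4 members, beside 10.1% of all ORs. Olfr136 had 222, 256 and 175 normalized counts at 0.1% TMT, against 164, 159 and 114 without odor, at 0.59 ± 0.24 log2. Olfr96, Olfr101 and Olfr103 were at -0.02, -0.22 and 0.31 log2 at 0.1% TMT, none past the test.

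At 1% TMT, Olfr136 and Olfr110 rose, each about 3-fold, and no member fell. These 2 of 43 stand beside 4.87% of all ORs called, or 4.69% called higher. Olfr136, the last member on the chromosome, had 611, 534 and 457 normalized counts at 1% TMT, against 192, 154 and 178 without odor. The lowest exposed mouse had more than double the highest control, and the change was 1.57 ± 0.25 log2 (SE; adjusted p = 9.91e-09). Olfr110 had 1004, 994 and 817 normalized counts at 1% TMT, against 307, 344 and 264 without odor. Here too the groups were wide apart, at 1.58 ± 0.25 log2 (SE; adjusted p = 1.11e-08). Its near-copy Olfr111 did not pass, with 68.3, 47.7 and 34.0 normalized counts at 1% TMT, against 55.0, 82.5 and 58.7 without odor, at -0.46 ± 0.32 log2. Counted as 1 OR, the pair rose by 1.38 ± 0.25 log2 (adjusted p = 9.35e-07). Olfr96 at 0.24 ± 0.24 log2, Olfr101 at -0.61 ± 0.24 and Olfr103 at -0.31 ± 0.37 did not pass at 1% TMT. The median over the 43 members was -0.04 log2 and that over all ORs -0.04.

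Undiluted TMT moved 13 of the 43 members, beside 14.9% of all ORs. Members that rose were 8, beside 11.6% of all ORs, and members that fell were 5, beside 3.31%. The split moved with the scaling: with library sizes alone, 5 rose and 7 fell, beside 9.65% and 9.28% of all ORs. With size factors over all genes it was again 5 and 7, beside 9.10% and 11.3% of all ORs. The median over all ORs was -0.08 log2 with the scaling used, -0.32 with library sizes alone and -0.38 with size factors over all genes, so changes are relative to these. The member median was -0.14 log2. The call count was 4 without litter 3 (Olfr110, Olfr111, Olfr136 and Olfr96), beside 9.01% of all ORs, and 8 without litter 1, beside 11.3%.

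Among the called members, the largest rise was in Olfr96, which stood alone in its sequence group. It had 384, 694 and 824 normalized counts at 100% TMT, against 107, 169.6 and 148 without odor. All 3 exposed mice were at more than double the highest control, and the change was 2.07 ± 0.29 log2 (SE; adjusted p = 5.65e-11). Olfr136 had 477, 674 and 725 normalized counts at 100% TMT, against 192, 154 and 178 without odor. The groups were again far apart, and it rose by 1.77 ± 0.28 log2 (SE; adjusted p = 1.94e-08). Olfr111, not called at 1% TMT, had 185, 203 and 298 normalized counts at 100% TMT, against 55.0, 82.5 and 58.7 without odor. It rose by 1.74 ± 0.28 log2 (SE; adjusted p = 2.20e-08). Olfr110 had 734, 1284 and 1163 normalized counts at 100% TMT, against 307, 344 and 264 without odor and rose by 1.72 ± 0.29 log2 (SE; adjusted p = 1.79e-07). For these 4 ORs every exposed mouse exceeded every control, and these are the calls that stood in each fit that left out a litter. Such groups without overlap, in either direction, were seen in 18 members at 100% TMT, beside 26.3% of all ORs.

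A weaker rise was called in Olfr133, Olfr125, Olfr131 and Olfr112. Olfr133, of the group Olfr133 to Olfr135, had 55.7, 97.2 and 128 normalized counts at 100% TMT, against 30.2, 39.7 and 41.4 without odor (1.23 ± 0.32 log2, adjusted p = 0.00164). Olfr125 had 49.8, 97.2 and 108 at 100% TMT, against 34.5, 39.7 and 41.4 without odor (1.02 ± 0.33 log2, adjusted p = 0.016). Olfr131, the strongest member without odor, had 442, 509.5 and 709 at 100% TMT, against 271, 349.9 and 224 without odor (0.92 ± 0.28 log2, adjusted p = 0.01). In all 3 the exposed mouse of litter 1 was the lowest, yet it was above every control. Olfr112 had 83.5, 88.4 and 86.8 normalized counts at 100% TMT, against 36.7, 56.5 and 48.3 without odor (0.84 ± 0.31 log2, adjusted p = 0.0472), close to the threshold. Olfr125, Olfr131 and Olfr112 were not called with library sizes alone or with size factors over all genes. Olfr135 had the largest fitted change, 2.84 ± 1.20 log2, but on 5.86, 16.2 and 13.0 normalized counts at 100% TMT against 2.16, 1.53 and 0 without odor, and it did not pass (adjusted p = 0.0957).

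The members that fell at 100% TMT were Olfr103, Olfr101, Olfr92, Olfr93 and Olfr122. Olfr101 was the best counted of them, with 84.9, 153 and 95.9 normalized counts at 100% TMT, against 226, 220.0 and 302 without odor. The groups did not overlap, at -1.24 ± 0.27 log2 (SE; adjusted p = 1.17e-04). Its relative Olfr103 had 19.0, 10.3 and 20.7 normalized counts at 100% TMT, against 41.0, 30.6 and 57.0 without odor, also without overlap (-1.40 ± 0.47 log2, adjusted p = 0.0252). Olfr102, between them on the chromosome, had 20.5, 28.0 and 10.4 at 100% TMT, against 34.5, 10.7 and 25.9 without odor and did not pass, at -0.30 ± 0.51 log2. Olfr93 had 58.6, 82.5 and 47.9 normalized counts at 100% TMT, against 91.6, 113 and 110.5 without odor (-0.80 ± 0.29 log2, adjusted p = 0.0379). Its neighbour Olfr92 had 42.5, 53.0 and 104 at 100% TMT, against 107, 73.3 and 219 without odor (-1.02 ± 0.28 log2, adjusted p = 0.00316), and here the groups overlapped, the drop lying within each litter. Olfr122 had 89.3, 94.2 and 84.2 at 100% TMT, against 106, 136 and 217 without odor (-0.77 ± 0.27 log2, adjusted p = 0.0341). In Olfr122 the exposed mice were nearly level while the controls spread 2-fold.

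**Figure D3:**
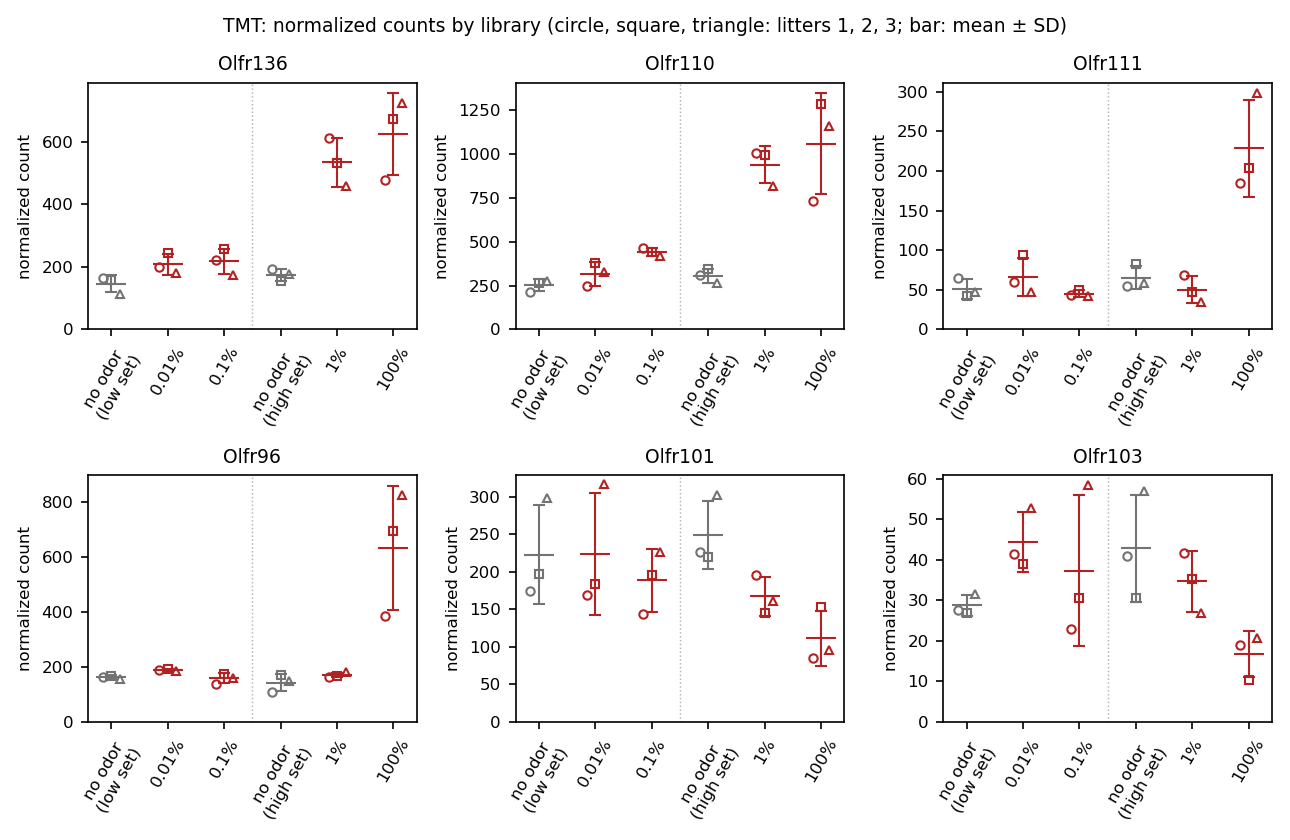
Normalized counts (vertical axis, linear from 0) of 6 receptors in each TMT and no odor library, by starting concentration (v/v). Circles, squares and triangles are litters 1, 2 and 3, with the mean and SD, and the dotted line separates the low and the high concentrations with their own no odor mice. Olfr136 and Olfr110 are high at 1% and 100%, Olfr111 and Olfr96 only at 100%, and Olfr101 and Olfr103 are lowest at 100%.

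The concentrations of 1% and 100% TMT were compared with each other in the joint fit, since both rest on the same no odor mice. Of the 43 members, 5 were higher and 3 lower at 100% than at 1% TMT, beside 8.09% of all ORs called, 6.34% higher and 1.75% lower. Olfr111 was higher by 2.23 ± 0.30 log2 (SE; adjusted p = 1.08e-08) and Olfr96 by 1.87 ± 0.24 log2 (SE; adjusted p = 3.89e-09). Olfr96 had 163, 166 and 179.9 normalized counts at 1% TMT, and so lay with the no odor mice there. Olfr125 (1.67 ± 0.34 log2), Olfr112 (1.44 ± 0.36) and Olfr133 (1.06 ± 0.33) were higher at 100% as well. Olfr125 had 49.8, 97.2 and 108 normalized counts at 100% TMT and 20.9, 27.1 and 31.2 at 1% TMT. Olfr136 and Olfr110, the members already high at 1% TMT, differed by 0.25 ± 0.23 and 0.18 ± 0.23 log2 and did not pass (adjusted p = 0.671 and 0.788). Without litter 3, 4 members were called (Olfr111, Olfr112, Olfr125 and Olfr96), beside 5.88% of all ORs.

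Lower at 100% than at 1% TMT were Olfr93, Olfr121 and Olfr120. Olfr93 had 58.6, 82.5 and 47.9 normalized counts at 100% TMT and 154, 125 and 132 at 1% TMT, a difference of -1.11 ± 0.27 log2 (SE; adjusted p = 0.00176). Olfr121 had 29.3, 41.2 and 33.7 at 100% TMT, against 75.9, 55.9 and 79.3 at 1% TMT (-0.99 ± 0.33 log2, adjusted p = 0.0464). Olfr120 had 39.5, 42.7 and 41.5 at 100% TMT, against 89.2, 62.5 and 90.6 at 1% TMT (-0.93 ± 0.31 log2, adjusted p = 0.048). None of the 3 overlapped between the concentrations, which was not counted over all ORs. The 3 were picked by their call in this same comparison, so the lack of overlap adds no support. Olfr101 at -0.57 ± 0.25 and Olfr103 at -1.07 ± 0.41 log2 did not pass. Between 0.1% and 0.01% TMT no member was called, beside 0.46% of all ORs. An unadjusted p below 0.05 was found for 1 member, beside 40 of the 1088 ORs.

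The single values of Olfr110 and Olfr111 depend on how shared reads were assigned between them. Singly, Olfr110 rose at 1% TMT and Olfr111 did not, and at 100% TMT both rose. Summed to 1 OR, the pair rose by 1.73 ± 0.30 log2 at 100% TMT (adjusted p = 2.02e-07). The direct difference of the sum between 100% and 1% TMT was 0.39 ± 0.23 log2 and did not pass (adjusted p = 0.399). How much of the difference in Olfr111 comes from read assignment was not tested. Summing was chosen after the data were seen.

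Over the 4 concentrations of ACT, Olfr136 was the only member called with all litters. At 0.01% ACT, 0 of 43 members were called, beside 0% of all ORs. An unadjusted p below 0.05 was found for 3 members, beside 28 of the 1088 ORs. Olfr92 had the smallest p, with 23.1, 74.2 and 49.3 normalized counts at 0.01% ACT, against 107, 159 and 92.6 without odor (-1.38 ± 0.37 log2, adjusted p = 1). All 3 exposed mice were below the controls, and without litter 1 the change was -1.01 ± 0.29 log2 (SE; adjusted p = 0.2). At 0.01% ACT the groups did not overlap in 6 members, beside 8.73% of all ORs. Olfr96, Olfr101, Olfr103 and Olfr136 were at 0.04, -0.03, -0.23 and 0.83 log2 with all litters, none past the test. The library labelled 0.01% ACT, litter 1 held 1373 normalized counts of Olfr110 and 768 of Olfr136, against 284 and 336 of Olfr110 and 165 and 118 of Olfr136 in litters 2 and 3. Without litter 1, 0 members and 0.368% of all ORs were called, with 2 members at an unadjusted p below 0.05 (not counted over all ORs). Olfr96, Olfr101, Olfr103 and Olfr136 were then at 0.41, -0.04, -0.40 and 0.10 log2, with Olfr110 at 0.27. At 0.1% ACT, 0 members were called, beside 0.643% of all ORs. An unadjusted p below 0.05 was found for 2 members, beside 38 of the 1088 ORs. Olfr109 had the smallest p, with 291, 212 and 140.1 normalized counts at 0.1% ACT, against 114, 153 and 122 without odor (0.70 ± 0.26 log2, adjusted p = 1), and its groups overlapped. Olfr96, Olfr101, Olfr103 and Olfr136 were at -0.19, 0.26, -0.03 and 0.50 log2 at 0.1% ACT, none past the test. Without litter 1, 0 members and 0% of all ORs were called at 0.1% ACT, with 1 member at an unadjusted p below 0.05 (not counted over all ORs). Olfr109 was then at 0.34 ± 0.24 log2, and Olfr96, Olfr101, Olfr103 and Olfr136 at 0.05, 0.22, -0.30 and 0.25. Between 0.1% and 0.01% ACT no member was called either, beside 0% of all ORs.

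At 1% ACT, Olfr136 rose and no other member was called, beside 1.65% of all ORs. It had 621, 235 and 584 normalized counts at 1% ACT, against 161, 138 and 189 without odor. All 3 exposed mice exceeded the controls, with litter 2 well below the other litters, and the change was 1.45 ± 0.29 log2 (SE; adjusted p = 2.46e-04). Without litter 1 it was 1.20 ± 0.33 log2 (SE; adjusted p = 0.0131), beside 1.93% of all ORs. It did not pass without litter 2 (1.76 log2, adjusted p = 0.965), without litter 3 (1.34 log2, adjusted p = 0.0587) or without the litter block (1.56 log2, adjusted p = 0.154). Olfr110 had 1111, 272 and 287 normalized counts at 1% ACT, against 294, 300.1 and 281 without odor. Only the library of litter 1 stood out, and Olfr110 did not pass at 0.58 ± 0.31 log2, or -0.06 ± 0.32 without litter 1. Olfr96 at -0.28 ± 0.25, Olfr101 at -0.18 ± 0.26 and Olfr103 at -0.05 ± 0.33 log2 did not pass at 1% ACT, nor did they without litter 1, at -0.27, -0.17 and -0.10 log2. At 1% ACT the groups did not overlap in 3 members, beside 8.18% of all ORs.

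At 100% ACT, 0 of 43 members and 0% of all ORs were called by edgeR's quasi-likelihood test. An unadjusted p below 0.05 was found for 9 members, 8 of them upward, beside 155 of the 1088 ORs. DESeq2 called 0 members as well, beside 1.65% of all ORs. The likelihood ratio test of edgeR called Olfr136, beside 3.95% of all ORs. Olfr136 had 415, 209.7 and 629 normalized counts at 100% ACT, against 161, 138 and 189 without odor. All 3 exposed mice were above the controls, and the change was 1.22 ± 0.35 log2 (SE; adjusted p = 0.133), or 1.20 ± 0.49 log2 (SE; adjusted p = 0.152) without litter 1. At 100% ACT the groups did not overlap in 9 members, beside 17.8% of all ORs. Olfr96 had 679, 116 and 119 normalized counts at 100% ACT, against 157, 153 and 212 without odor, so that litter 1 alone was high (0.23 ± 0.54 log2, and -0.60 ± 0.45 without litter 1). Olfr101 and Olfr103 lay at -0.19 ± 0.36 and -0.40 ± 0.60 log2 with all litters, and at 0.25 ± 0.46 and 0.50 ± 0.50 without litter 1, none past the test.

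Without litter 1, 3 members rose at 100% ACT, beside 8% of all ORs. Olfr91 had 37.7, 96.5 and 151 normalized counts at 100% ACT, against 41.0, 43.4 and 18.9 without odor. Litters 2 and 3 exceeded the controls and litter 1 did not, and without litter 1 the change was 2.04 ± 0.51 log2 (SE; adjusted p = 0.0025). Olfr133 had 58.9, 60.1 and 204 at 100% ACT, against 41.0, 37.7 and 18.9 without odor and changed by 2.03 ± 0.52 log2 (SE; adjusted p = 0.00371) without litter 1. Olfr99 had 136, 337 and 209.8 at 100% ACT, against 95.7, 89.0 and 119 without odor and changed by 1.39 ± 0.47 log2 (SE; adjusted p = 0.0425) without litter 1. These calls rest on 2 litters. In the direct comparison of 100% with 1% ACT no member was called, beside 0% of all ORs, and without litter 1 Olfr91 and Olfr99 were, beside 5.88% of all ORs.

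Whether a member answered differently to the 2 odorants was tested as the ACT response minus the TMT response at the same concentration, each against its own littermates, over all 36 libraries. No member was called at 0.01%, 0.1%, 1% or 100%, beside 0%, 0.46%, 0% and 0% of all ORs. At 100%, 3 members had an unadjusted p below 0.05, beside 118 of the 1088 ORs. The nearest was Olfr96, with a difference of -1.67 ± 0.55 log2 (SE; adjusted p = 0.206). Leaving out the litters numbered 1 in all 4 sets changed these calls. At 1%, the response of Olfr110 to ACT was then below that to TMT, with a difference of -1.62 ± 0.44 log2 (SE; adjusted p = 0.0299), beside 2.3% of all ORs called. At 100%, Olfr96 differed by -2.86 ± 0.41 log2 (SE; adjusted p = 2.03e-05) and Olfr131 by -1.75 ± 0.45 log2 (SE; adjusted p = 0.0117), beside 5.61% of all ORs called. Olfr136 differed by -0.17 ± 0.47 log2 at 1% and -0.61 ± 0.47 at 100% with all litters, and by -0.38 ± 0.42 and -0.89 ± 0.42 without litter 1, none past the test. Olfr101 and Olfr103 differed by 1.04 ± 0.38 and 1.11 ± 0.69 log2 at 100%, neither past the test.

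The dorsal and ventral libraries ask where in the epithelium an OR is expressed. Of the 43 members, 20 were called between the zones, beside 74.6% of all ORs. Higher in dorsal epithelium were 3, beside 37.4% of all ORs, and lower 17, beside 37.2%. The count of dorsal members thus lay below the share over all ORs, and that of ventral members near it. With library sizes alone 2 were dorsal and 24 ventral, beside 34.8% and 44.3% of all ORs. The member median was -1.16 log2 and that over all ORs -0.65. With another scaling the median over all ORs ranged from -1.24 to -0.39. The members together took 1.56%, 2.56% and 1.20% of OR counts in dorsal libraries 1, 2 and 3, against 4.87%, 4.95% and 4.77% in ventral libraries.

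The dorsal members were Olfr134, Olfr133 and Olfr107. Olfr134 had 305, 211 and 375 normalized counts in dorsal epithelium, against 29.6, 56.5 and 43.2 in ventral epithelium (2.79 ± 0.61 log2, adjusted p = 0.00111). Olfr133 had 384, 246 and 413 in dorsal libraries, against 60.1, 76.2 and 72 in ventral libraries (2.29 ± 0.59 log2, adjusted p = 0.00333). Olfr107 had 449, 322 and 516 in dorsal libraries, against 105, 129 and 140.2 in ventral libraries (1.76 ± 0.56 log2, adjusted p = 0.0121). In each the groups were well apart and dorsal library 2 was the lowest dorsal one. Olfr107 lost its call with library sizes alone (adjusted p = 0.0651) and with size factors over all genes (adjusted p = 0.0620). Olfr135, 95.4% identical to Olfr133, had 81.8, 58.2 and 51.6 normalized counts in dorsal libraries, against 71.2, 85.2 and 90.2 in ventral libraries and did not pass (-0.38 ± 0.56 log2).

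The strongest ventral members were neighbours, and all 6 members from Olfr123 to Olfr128 were called ventral. Olfr128 had 0, 1.19 and 11.6 normalized counts in dorsal epithelium, against 81.4, 99.1 and 81.6 in ventral epithelium (-4.86 ± 0.92 log2, adjusted p = 4.63e-04). Olfr126 had 0, 4.75 and 2.58 in dorsal libraries, against 61.1, 62.3 and 57.6 in ventral libraries (-4.74 ± 0.81 log2, adjusted p = 2.60e-04). Olfr127 had 0.962, 15.4 and 14.2 in dorsal libraries, against 165, 219.6 and 149 in ventral libraries (-4.40 ± 0.80 log2, adjusted p = 3.49e-04). These dorsal libraries held few counts of the 3, and the fitted changes depend on them. Olfr124, among the strongest ORs of the cluster, had 8.66, 222 and 98.0 in dorsal libraries, against 1101, 1454 and 896 in ventral libraries (-4.03 ± 0.83 log2, adjusted p = 8.50e-04). Olfr123 had 9.62, 47.5 and 5.16 in dorsal libraries, against 123, 93.4 and 91.2 in ventral libraries (-2.82 ± 0.75 log2, adjusted p = 0.00444). Dorsal library 2 was the highest dorsal library for Olfr123, Olfr124, Olfr126 and Olfr127, and library 3 for Olfr128. The other ventral members, Olfr93, Olfr94, Olfr96, Olfr109, Olfr110, Olfr116, Olfr117, Olfr121, Olfr122, Olfr125, Olfr130 and Olfr132, were -1.30 to -2.60 log2.

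Without dorsal and ventral library 1, or without library 3, 5 members were called (Olfr124, Olfr126, Olfr127, Olfr128 and Olfr134), beside 50.1% and 51% of all ORs. Without library 2, 25 members were called, beside 75.1% of all ORs. Of the receptors that moved with TMT, Olfr96 had 76.0, 78.4 and 51.6 normalized counts in dorsal libraries, against 161, 179 and 160.3 in ventral libraries (-1.30 ± 0.54 log2, adjusted p = 0.0435). Olfr110 had 70.2, 182 and 27.1 in dorsal libraries, against 277, 278 and 282 in ventral libraries (-1.96 ± 0.68 log2, adjusted p = 0.0193), and summed with Olfr111 it was at -1.48 ± 0.58 log2 (adjusted p = 0.0336). Olfr136 had 109, 171 and 64.5 in dorsal libraries, against 287, 254 and 260.1 in ventral libraries without overlap, but missed the threshold (-1.32 ± 0.58 log2, adjusted p = 0.0537). Olfr101 had 124, 110.4 and 134 in dorsal libraries, against 121, 127 and 116 in ventral libraries, with overlapping groups, at 0.01 ± 0.53 log2. Olfr103 did not pass at -0.40 ± 0.53 log2.

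**Figure D4:**
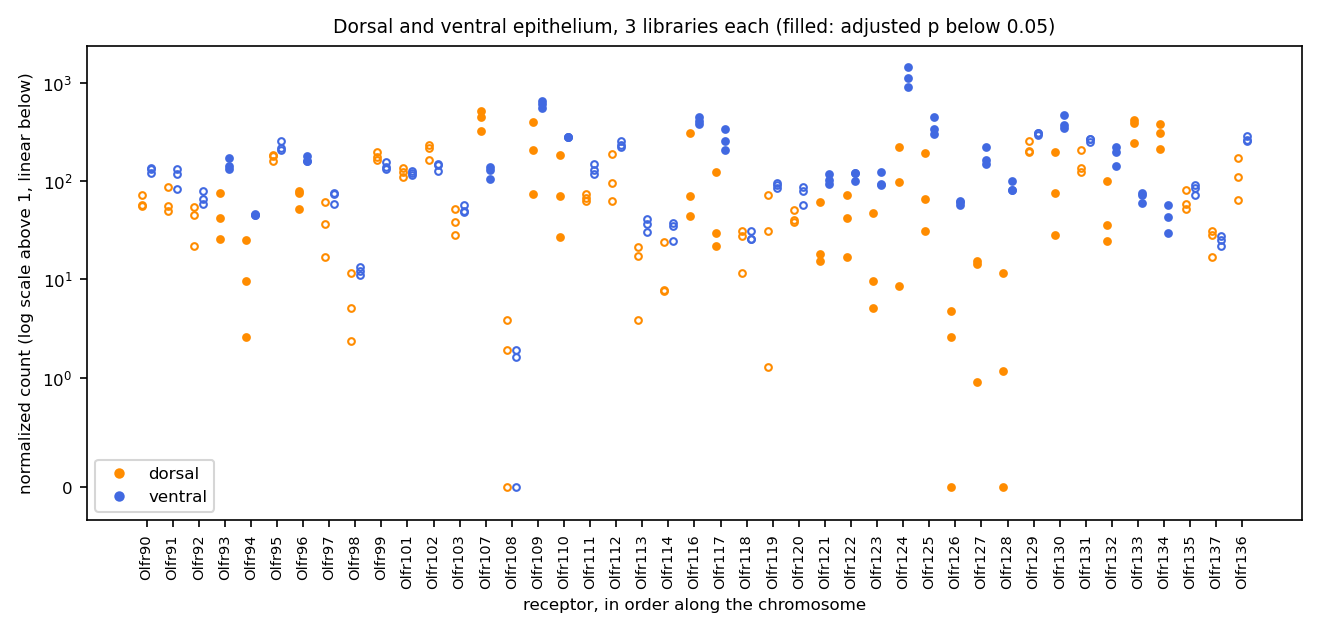
Normalized counts of the 43 receptors (horizontal axis, in order along the chromosome) in 3 dorsal (orange) and 3 ventral (blue) libraries, on an axis that is logarithmic above 1 and linear below. Filled points mark an adjusted p below 0.05. Orange lies above blue in Olfr107, Olfr133 and Olfr134, and far below it from Olfr123 to Olfr128.

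TMT calls and zone calls of the members are set side by side here as counts. Of the 43 members, 3 were called dorsal and 17 ventral, beside 37.4% and 37.2% of all ORs. TMT calls by zone were not counted over all ORs. Of the 8 members that rose at 100% TMT, 1 was dorsal (Olfr133), 3 were ventral (Olfr96, Olfr110 and Olfr125) and 4 were called for neither. Of the 5 that fell, 0 were dorsal, 2 were ventral (Olfr93 and Olfr122) and 3 were called for neither. Along the chromosome, the members that fell were Olfr92, Olfr93, Olfr101 and Olfr103 in the first stretch and Olfr122 farther on. Olfr110, Olfr111 and Olfr112 are consecutive members and all rose, though Olfr112 is in another sequence group. No sequence group held both a member that rose and a member that fell. In the group of Olfr112 to Olfr116 and Olfr126 to Olfr128, 1 of 7 rose and 4 were ventral, beside 11.6% and 37.2% of all ORs. In that of Olfr97, Olfr98, Olfr99, Olfr107 and Olfr108, 0 were called at 100% TMT, beside 14.9% of all ORs. Of the 5 members with phenylalanine in the DRY motif, Olfr101 and Olfr103 fell and the other 3 were not called. Over all ORs, 3.31% fell. These are counts over few genes that share ancestry, and none was tested.

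**Figure D5:**
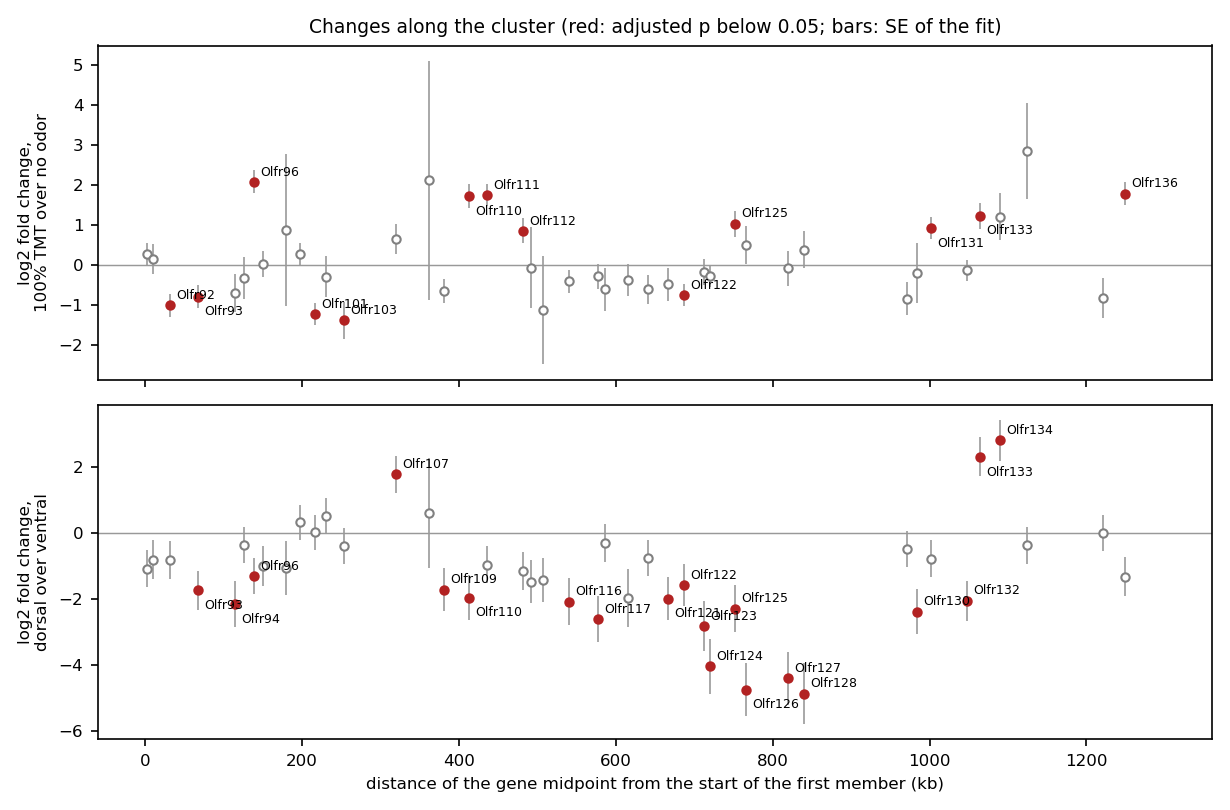
Log2 fold change of 100% TMT over no odor (upper panel) and of dorsal over ventral epithelium (lower panel) against the distance in kilobases of each gene from the start of the first member. Red points have an adjusted p below 0.05, and bars are SE of the fit. The upper panel holds 8 red points above 0 and 5 below, and the lower panel 3 above and 17 below.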

How the data were processed

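pS6-IP-Seq covered 36 libraries of mouse olfactory epithelium, and total RNA-Seq 6 libraries of dorsal and ventral epithelium, whose labels repeat the immunoprecipitation protocol. The authors aligned 50-base reads with STAR to GRCm38 and estimated counts with RSEM, on an annotation of ORs with their UTRs. The deposited counts are these expected counts rounded to whole numbers, for intact ORs. The deposited mean signal columns per group are the authors' counts divided by DESeq size factors over all genes, and served only to recover those factors. The authors' log2 fold changes, log2 CPM, likelihood ratios, p-values and FDR values in the same tables were not used. For 1 library of 0.1% TMT, a file name in its label says 1%, and its odor label was followed.

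Counts were tested with edgeR 4.0.16 in R 4.3.3 (glmQLFit with robust dispersion, glmQLFTest, two-sided). Libraries were scaled by TMM over ORs, no OR was filtered, and ORs without a count got a p of 1. Replicate number entered as a block, because it stands for littermates, and for the zones because the study's R code pairs them. Same-numbered libraries had median correlations of deviations from the group mean of 0.0667 to 0.148 in the 4 pS6 experiments. The medians for other numbers, -0.0726 to -0.0331, largely follow from these in groups of 3 and are no separate comparison. Adjustment was Benjamini-Hochberg over all ORs, called below 0.05. Direct comparisons of concentrations used the 18 libraries of an odorant, and ACT minus TMT all 36. The SE is the log2 fold change divided by the square root of F, so it restates the test. Normalized counts come from each library's effective size. The scripts were tested on simulated data with the same dispersion in every design and no litter effect, which says little about the comparisons with more spread.

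Members and lists were chosen with earlier results of these data known. Named with values were members called in a comparison, the member with the smallest p where none was called, and Olfr96, Olfr101, Olfr103 and Olfr136. Also named were the highest and lowest members without odor and the 5 largest zone changes in each direction. Positions, exons and coding sequences are from GENCODE M21 and the GRCm38 genome, with identities from Biopython 1.88 alignments. Protein sequences were not used here. Alternatives were library sizes alone, DESeq2 size factors, size factors over all genes, the likelihood ratio test, DESeq2 1.42.0, a low-count filter, no block, a joint fit and leaving out each litter.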

Additional observations from a re-analysis of the deposited data

Results flagged for a closer look

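For 8 members the response to TMT differed between the concentrations of 100% and 1%, by the direct contrast in the joint fit of edgeR's quasi-likelihood test. Higher at 100% than at 1% TMT were Olfr111 by 2.23 log2, Olfr96 by 1.87, Olfr125 by 1.67, Olfr112 by 1.44 and Olfr133 by 1.06. Lower at 100% than at 1% TMT were Olfr120 at -0.93 log2, Olfr121 at -0.99 and Olfr93 at -1.11. In none of these 8 did the change reverse under an alternative. The value for Olfr111 depends on reads shared with Olfr110, and the sum of both differed by 0.39 log2 without passing the test. Olfr121 also shares many 50-base stretches with other OR genes, and how far this moves its value was not tested.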

How the results depend on the processing

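No call turned round in direction under an alternative that was run, though some values that missed the test changed sign, among them, without litter 1, Olfr110 at 1% ACT and Olfr96, Olfr101 and Olfr103 at 100% ACT. The number of members called at 1% ACT fell to 0 without the litter block and in the joint fit, beside 0.184% and 0% of all ORs. It lay between 0 and 1 with a litter left out (0 without litter 2 or without litter 3), beside 0% to 1.93%. At 100% ACT it was 1 in the likelihood ratio test (Olfr136), beside 3.95% of all ORs. With a litter left out it was 0 to 3, beside 0.46% to 8%. At 0.1% TMT it was 1 (Olfr110) with library sizes alone, with size factors over all genes, in the likelihood ratio test and in the joint fit. Of all ORs, 1.47% to 2.3% were called in these fits. With a litter left out the count was 0 to 1 (Olfr95 without litter 3), beside 1.01% to 1.75%. At 100% TMT DESeq2 called 7 members, beside 10.1% of all ORs. With a litter left out 4 to 10 were called, with 4 without litter 3, beside 9.01% to 11.6% of all ORs. Between the zones 5 to 25 members were called with a library pair left out, beside 50.1% to 75.1% of all ORs. At 100% against 1% ACT DESeq2 called 1 member (Olfr120), beside 1.75% of all ORs. With a litter left out 0 to 2 were called, beside 0% to 5.88%. At 100% against 1% TMT the count was 4 to 7 with a litter left out, beside 5.88% to 8% of all ORs. For ACT minus TMT it was 0 to 1 at 1% and 0 to 2 at 100%, the highest without litter 1. All ORs called in these fits were 0% to 2.3% at 1% and 0% to 5.61% at 100%.

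Without the replicate block, 11 members were called at 100% TMT, 24 between the zones and 6 at 100% against 1% TMT, beside 12.6%, 78.5% and 6.43% of all ORs. Same-numbered dorsal and ventral libraries had a median correlation of -0.306, so the data give no sign of that pairing. The median for other numbers, 0.183, is no separate comparison, because deviations were taken from the group mean of 3 libraries. Over the genes named singly, 454 values under alternatives kept their side of the threshold, 89 lost the call and 8 gained one. A sign change between values that both missed the test would count among the 454. Fits of a single concentration without a litter rest on 4 libraries, and their p-values are less sure. Members with a handful of counts, such as Olfr98, Olfr108 and Olfr135, could hardly show a change at this depth.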

Other observations

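Some members stood high in single ACT libraries. In the library labelled 100% ACT, litter 1, Olfr111 had 239 normalized counts, against 79.7 and 68.7 in litters 2 and 3. In the library labelled 0.01% ACT, litter 1, 100 of the 126 ORs that rose at 100% TMT were at their highest among the 3 libraries of that group. Over all ORs with a count in the group it was 384 of 1063. The same held for 73 of 126 in the library labelled 1% ACT, litter 1, beside 393 of 1068 ORs. In the library labelled 100% ACT, litter 1, it held for 73 of 126, beside 359 of 1055. In the 0.1% ACT libraries it held for 39 of 126 in litter 1, beside 358 of 1067. Of the 8 members that rose at 100% TMT, 6, 3 and 5 were highest in litter 1 at 0.01%, 1% and 100% ACT, and 1 at 0.1% ACT. The cause was not tested.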
